A study of Mus musculus with 9 samples.

Results

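Long intergenic noncoding RNA (lincRNA) genes of the mouse testis were followed through an acetylated RNA immunoprecipitation experiment (acRIP-seq). The 2049 genes were those that the GENCODE vM21 annotation types as lincRNA and that held at least 60 counts summed over the 9 libraries, leaving out Malat1, Neat1, Kcnq1ot1, Meg3, H19, Gas5, Snhg1, Snhg11 and Snhg12. The table listed 55401 genes in all, 5614 of them typed lincRNA, and 3705 lincRNA genes held at least 1 count. The genes were thus selected on their summed counts. At the limit, 13 selected genes had sums of 60 or 61 and 16 lincRNA genes outside had sums of 58 or 59.

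Poly(A) RNA of wild-type mouse testis was sequenced as input RNA with no antibody, as RNA recovered with a rabbit control immunoglobulin (IgG) and as RNA recovered with an antibody against N4-acetylcytidine (acRIP), with 3 libraries in each group. All groups carried the same genotype and no treatment, an in vitro transcribed β-globin RNA with ac4C was added before precipitation, and the age of the mice was not given for these libraries. Libraries were made by Smart-seq2, which primes cDNA with oligo(dT) and amplifies it. The input was brought to a set concentration before library construction, whereas the RNA recovered with IgG or the ac4C antibody was too scarce to be quantified. The labels do not say whether the 3 libraries of a group came from separate animals, precipitations or amplifications, so p-values measure only the spread between these libraries, which may be technical.

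Library totals were 31340090, 22023925 and 22192553 counts in input, 14647542, 18786779 and 18595278 in IgG, and 16025779, 18639134 and 16773843 in acRIP. Of the selected genes' counts from 1 to 20, 80.0% were even. Where mates of a pair are each counted, a count overstates the number of fragments and its error is larger than the count implies. Spermatid and spermatocyte markers were abundant in every group. The 5 spermatid markers summed to between 17229 and 21253 CPM per library (CPM, counts scaled to a library total of 1000000), while 3 liver markers summed to at most 0.745 CPM. The 3 macrophage markers summed to 1.07 to 2.62 CPM in acRIP, 10.9 to 15 in IgG and 12 to 13.4 in input. Their part in the results was not tested. The 3 groups are fractions of poly(A) RNA from whole testis, so these sums give marker levels and not numbers of cells.

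LincRNAs are transcribed from loci outside protein-coding genes, are often spliced and polyadenylated like mRNA, and lack a long conserved reading frame. Some act in the nucleus on chromatin or transcription, some bind proteins or microRNAs, some are the primary transcripts of microRNAs, and most have no known role. The testis, above all its meiotic and postmeiotic germ cells, transcribes more such loci than most other tissues. N4-acetylcytidine (ac4C) is a base modification written by NAT10, best known from tRNA and from the small-subunit ribosomal RNA, where the acetylated cytidine stands in a CCG context.

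The transcript ends of 9 lincRNAs are shown because oligo(dT) priming starts there and because these genes are described below. Sequences were read from the GENCODE vM21 transcripts (GRCm38, the mm10 build), 5′ to 3′ on the transcript strand, from the longest transcript of each gene. The last 150 bases are given, or the whole of the 260-base Gm45430, and capitals mark CCG and the polyadenylation signal AATAAA. The first 4 genes rose in acRIP against both IgG and input. They were Gm45430 (chr8:80195199-80197656, plus strand), Gm43821 (chr3:38094629-38130191, minus strand), Gm13211 (chr2:7716151-7781408, minus strand) and 4933409F18Rik (chr12:26814371-26834873, minus strand). Of these, Gm45430, Gm43821 and Gm13211 reached the minimum of 60 counts only with their acRIP counts.
Gm45430: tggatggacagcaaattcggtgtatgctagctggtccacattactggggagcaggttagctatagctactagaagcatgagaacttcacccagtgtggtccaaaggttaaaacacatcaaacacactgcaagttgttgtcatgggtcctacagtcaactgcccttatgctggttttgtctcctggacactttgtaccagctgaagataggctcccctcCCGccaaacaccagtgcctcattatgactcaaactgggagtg
Gm43821: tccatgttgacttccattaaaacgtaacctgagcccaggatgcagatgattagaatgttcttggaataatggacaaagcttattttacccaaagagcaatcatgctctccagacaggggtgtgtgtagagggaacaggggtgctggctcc
Gm13211: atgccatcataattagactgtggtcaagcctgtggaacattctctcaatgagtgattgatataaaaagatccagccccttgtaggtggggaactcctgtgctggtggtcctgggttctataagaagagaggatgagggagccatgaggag
4933409F18Rik: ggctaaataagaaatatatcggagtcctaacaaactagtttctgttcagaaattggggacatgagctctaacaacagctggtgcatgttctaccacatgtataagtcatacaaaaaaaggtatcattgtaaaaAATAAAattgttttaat
The next 4 were lower in acRIP than in both groups. They were Gm34558 (chr13:59211622-59217172, minus strand), 2310065F04Rik (chr11:67112461-67120080, minus strand), 1700120C18Rik (chr8:87500049-87501231, minus strand) and Mir9-3hg (chr7:79500026-79534403, plus strand). The last sequence is from 4930571K23Rik (chr7:125368861-125371013, plus strand), the lincRNA with the most counts in input.
Gm34558: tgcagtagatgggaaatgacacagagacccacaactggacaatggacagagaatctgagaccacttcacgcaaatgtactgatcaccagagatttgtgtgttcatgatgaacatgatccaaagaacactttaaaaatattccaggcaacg
2310065F04Rik: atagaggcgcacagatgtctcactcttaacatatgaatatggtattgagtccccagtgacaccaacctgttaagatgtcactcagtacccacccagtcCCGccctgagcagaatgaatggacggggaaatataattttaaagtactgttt
1700120C18Rik: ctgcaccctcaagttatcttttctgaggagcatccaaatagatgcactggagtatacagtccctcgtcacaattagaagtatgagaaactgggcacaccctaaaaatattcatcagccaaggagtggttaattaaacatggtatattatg
Mir9-3hg: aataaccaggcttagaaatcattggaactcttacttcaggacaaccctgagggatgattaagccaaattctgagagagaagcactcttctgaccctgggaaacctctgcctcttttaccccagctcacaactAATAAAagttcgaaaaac
4930571K23Rik: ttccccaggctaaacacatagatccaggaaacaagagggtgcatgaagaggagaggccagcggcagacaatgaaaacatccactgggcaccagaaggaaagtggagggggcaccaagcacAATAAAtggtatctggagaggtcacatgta
Over the last 150 bases, counted on the transcript strand alone, CCG was present in 30.3% of the tested lincRNA genes and in 32.1% of all tested genes with a window. AATAAA was present in 42.4% and 53.1%. Among lincRNA genes higher in acRIP than both, CCG stood in 30.3% of the windows, and among those lower than both in 28.0%. A match describes these letters only and locates no ac4C.

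The selected genes were short and mostly spliced. Their merged exons had a median of 1094 bases (78 to 93147), and 95 genes (4.64%) had 1 exon in every annotated transcript. Most lay apart from coding genes. No protein-coding gene stood within 5 kb of 1590 of them, 329 lay within 5 kb without overlap, 106 overlapped a protein-coding gene on the opposite strand and 24 on the same strand. By symbol, 1157 were Gm-numbered gene models, 529 were RIKEN clones from testis cDNA libraries, 162 were other RIKEN clones, 139 had clone-based symbols and 62 had other names. Only 20 lay on the X chromosome and 5 on the Y chromosome. Counting did not state the use of strand, and 651 of the genes overlapped another annotated gene, 520 of them one on the opposite strand, so reads of such pairs cannot be told apart. In 106 genes at least 1 stretch of 100 bases also stood in a transcript of a gene elsewhere, and in 18 over 50% of such stretches did, which uniquely mapped reads undercount.

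The lincRNA genes held a small share of each library. They took 2.26 to 2.28% of the counts in input, 2.12 to 2.24% in IgG and 1.96 to 2.01% in acRIP, and the 3 ranges did not overlap. A single gene, AC121802.1, held 0.155 to 0.232% of the IgG libraries, and without it the IgG share was 1.96 to 2.01%, the same range as acRIP. Between 1999 and 2027 of the 2049 genes had a count in an input library, 1956 to 1976 in an IgG library and 1683 to 1707 in an acRIP library. Over all genes of the table, 28552 to 29642 had a count in an input library, 26204 to 26874 in an IgG library and 22206 to 22402 in an acRIP library.

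The question of the design was which transcripts the ac4C antibody recovered above both the input RNA and the IgG background. Of the lincRNA genes, 2001 passed the filter on low counts and were tested with all other genes, and 48, with sums of 60 to 86, were not. A gene was called when edgeR's adjusted p was under 0.05 and its fold change over 2. Against IgG, 365 lincRNA genes (18.2%) were higher in acRIP, beside 11.5% of all tested genes, and 565 (28.2%) were lower, beside 20.9%. Against input, 336 (16.8%) were higher, beside 17.7% of all tested genes, and 621 (31%) were lower, beside 22.9%. The lincRNA genes were thus called lower more often than higher against each control group. The comparisons share the acRIP libraries. With the low-count filter raised to a mean of 20 counts, 298 genes were lower than IgG and 339 lower than input, while a test against a fold of 2 left 214 higher than IgG and 196 higher than input.

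Against IgG and input together, 231 lincRNA genes (11.5%) were higher in acRIP, beside 7.88% of all tested genes, and 507 (25.3%) were lower, beside 17%. The 3 acRIP libraries lay above all 6 other libraries in 217 of the 231 (93.9%) and below them in 465 of the 507 (91.7%), beside 97.1% and 92.8% of all genes so called, a separation that the call itself largely fixes. Another 853 genes (42.6%) were called in neither comparison. Of the antisense genes with at least 60 counts, 12.7% were higher and 17.9% lower than both, and of the protein-coding genes 5.87% and 15.9%. These are counts over genes that passed a filter and are given as description. Some of the 231 lincRNA genes reached 60 counts only with their acRIP counts, among them 9 with 0 counts in all 6 other libraries. The shares of all tested genes were taken without that minimum. The number lower than both fell to 282 when each fit held only the 6 libraries compared and to 257 at a mean of 20 counts, and the number higher than both fell to 115 in the test against a fold of 2. Among the 1302 tested genes with no overlapping gene and no shared stretch, 149 (11.4%) were higher and 343 (26.3%) lower than both.

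**Figure D1:**
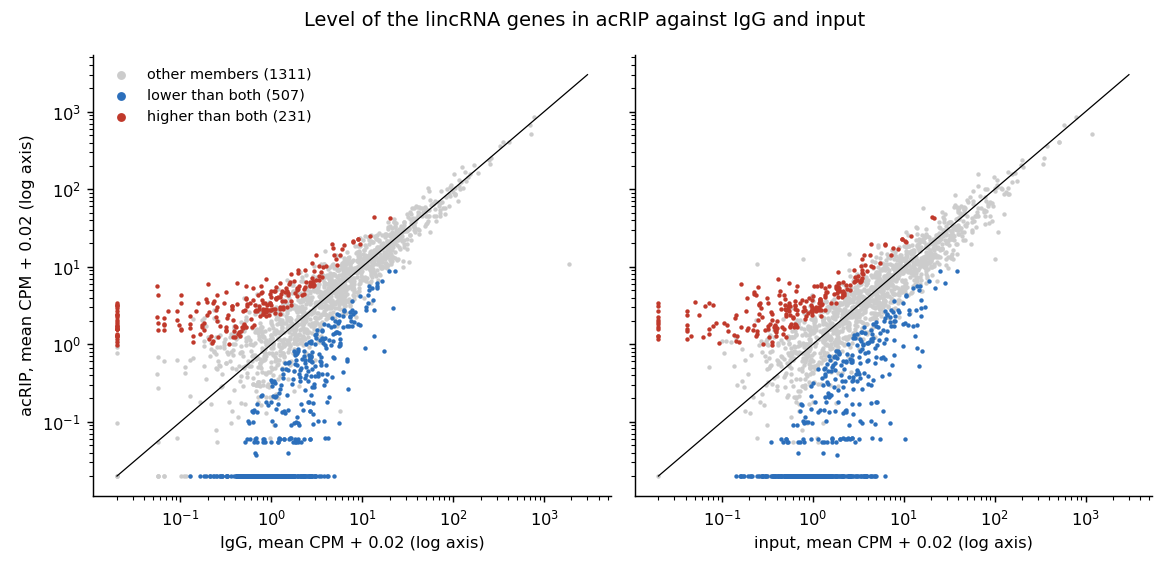
Mean CPM of each of the 2049 lincRNA genes in acRIP against IgG (left) and input (right), on log axes with 0.02 added, with the line of equal level. The 231 genes higher than both (red) and the 507 lower than both (blue) lie mainly at low levels, 263 of the blue genes at 0 in acRIP, and the abundant genes follow the line.

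The median log2 fold change of the tested lincRNA genes was -0.08 for acRIP over IgG and -0.24 for acRIP over input. Over all tested genes these medians were -0.09 and -0.10. Against IgG the calls thus lay on both sides of a median close to that of all genes. The median length was 1087 bases in the tested lincRNA genes and 3002 in all tested genes.

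The calls varied with the level of the gene. The mean over all 9 libraries, which includes the libraries compared, had a median of 2.43 CPM in the lincRNA genes and 13.1 CPM in protein-coding genes. It was 2 CPM or less in 44.9% of the tested lincRNA genes and in 18.4% of the protein-coding genes. CPM takes no account of length. Divided by exon length in kilobases (FPKM), the input level had a median of 2.52 in lincRNA and 2.74 in protein-coding genes. Their median lengths were 1087 and 4158 bases. At 0.5 CPM or less, 65.4% of 162 lincRNA genes were lower than both, from 0.5 to 1 CPM 41.3% of 361, from 1 to 2 CPM 31.7% of 375, from 2 to 4 CPM 24% of 325, from 4 to 8 CPM 11.4% of 299, from 8 to 16 CPM 8.37% of 215, and above 16 CPM 1.14% of 264. The share higher than both was 7.41% in the lowest class, reached its peak from 1 to 2 CPM, with 75 of 375, and was again 1.14% above 16 CPM.

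Protein-coding genes showed a similar course. In them the share lower than both was 62.3%, 50.7%, 38.9%, 26.8%, 17%, 10.4% and 2.38% from the lowest to the highest class. In 6 of the 7 classes this was more than in lincRNA genes of that level, although over all levels lincRNA genes were called lower more often. The share higher than both was larger in lincRNA than in protein-coding genes in every class but that from 4 to 8 CPM. In lincRNA and protein-coding genes it was 7.41% and 4.64% at 0.5 CPM or less, and 17.2% and 11.4% from 0.5 to 1 CPM. It was 14.8% and 14.7% from 2 to 4 CPM, and 4.65% and 4.56% from 8 to 16 CPM. From 4 to 8 CPM it was 7.02% and 9.91%, and above 16 CPM 1.14% and 0.591%. In antisense genes the share higher than both was 12.4%, 20.3%, 20.1%, 13.3%, 8.02%, 6.96% and 0.645% from the lowest to the highest class. It was below the lincRNA share only from 2 to 4 CPM and above 16 CPM. The difference between the gene types was not tested.

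**Figure D2:**
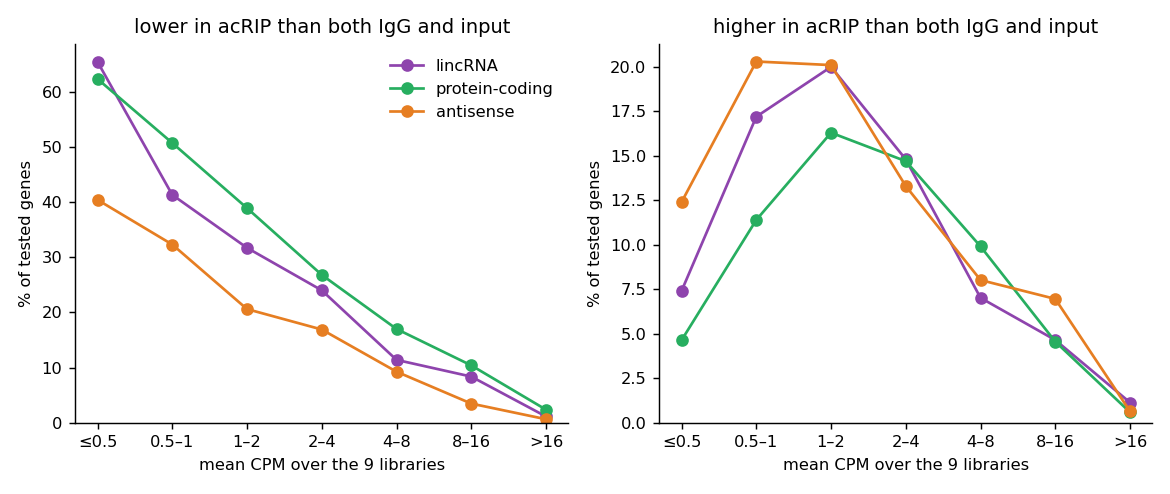
Share of tested genes called lower (left) or higher (right) in acRIP than in both IgG and input, by mean CPM over the 9 libraries, for lincRNA, protein-coding and antisense genes. In lincRNA genes the share called lower goes from 65.4% in the lowest class to 1.14% in the highest, and in the other gene types it also falls with level. Shares in the lowest classes depend on the filters on counts.

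LincRNA genes without a count were most frequent in acRIP. Of the 2049 lincRNA genes, 294 had 0 counts in all 3 acRIP libraries, 56 in 2 and 65 in 1. In IgG, 37 had 0 counts in all 3 libraries, 27 in 2 and 85 in 1. In input, 13 had 0 counts in all 3, 15 in 2 and 41 in 1. So 70.8% of the genes missing from some acRIP library were missing from all of them, beside 24.8% in IgG and 18.8% in input. This held over the series, since over all tested genes the shares were 68.0% in acRIP, 30.2% in IgG and 22.3% in input. At 0.5 to 1 CPM over the 9 libraries, 31.3% of the lincRNA and 37.7% of the protein-coding genes were at 0 in all 3 acRIP libraries. Of the 294, 249 had counts in all 6 other libraries, and their mean count per input library, over all 294, had a median of 21.0 and a maximum of 154. Of the 507 genes lower than both, 263 (51.9%) had 0 counts in all acRIP libraries, and of the 231 higher than both, 28 had 0 counts in all IgG libraries and 9 in all 6 other libraries.

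**Figure D3:**
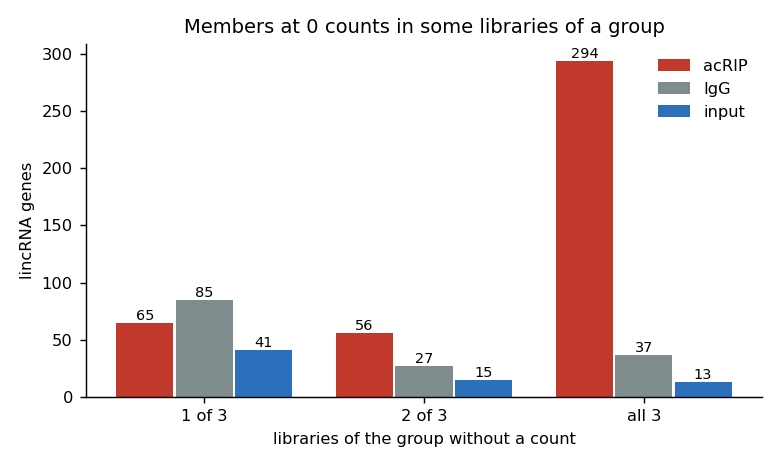
Number of the 2049 lincRNA genes without a count in 1, 2 or all 3 libraries of each group. In acRIP the class missing from all 3 libraries is the tallest, with 294 genes, whereas in IgG and input the class missing from 1 library is, with 85 and 41.

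The same contrast appeared in how wide the levels were. Among the 377 lincRNA genes with 0.5 to 1 CPM over the 6 IgG and input libraries, the mean acRIP level ran from 0 at the 10th percentile to 2.52 CPM at the 90th, with a median of 0.0774 CPM. Among the 311 genes at that level in the acRIP and input libraries, the IgG level ran from 0.0455 to 1.65 CPM. Among the 324 genes at that level in the acRIP and IgG libraries, the input level ran from 0.143 to 1.94 CPM. The libraries of a group ranked these genes alike. Spearman's rho between pairs of libraries, over genes of that class, averaged 0.92 in acRIP, 0.73 in IgG and 0.82 in input. From 1 to 2 CPM it was 0.92 over 364 genes, 0.76 over 357 and 0.85 over 371. Genes are not independent replicates, and a wider spread of levels by itself raises such a correlation.

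**Figure D4:**
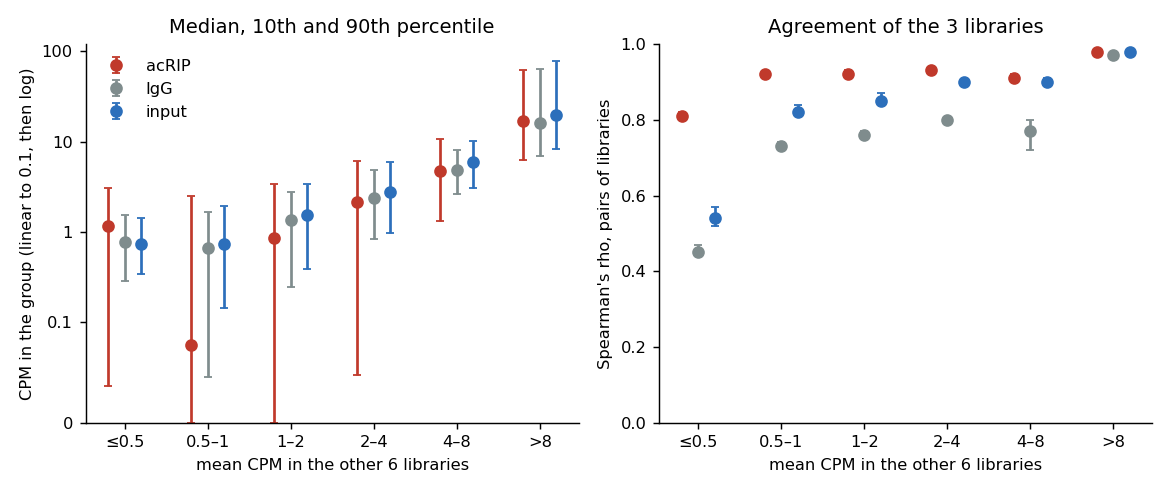
LincRNA genes grouped by their mean CPM in the 6 libraries of the other groups. Left, the level in the group named by colour (median, bars from the 10th to the 90th percentile, axis linear to 0.1 CPM and then logarithmic), and right, Spearman's rho between its libraries (mean of the 3 pairs, bars from lowest to highest). From 0.5 to 1 CPM the acRIP levels are spread from 0 to 2.52 CPM and agree at 0.92.

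Among the 231 genes higher in acRIP than both, those with most counts give the change that the data measure best. The 10 with the largest summed counts were picked after their values were seen. Their log2 fold changes lay between 1.09 and 1.75 over IgG and between 1.04 and 1.72 over input. 4933409F18Rik, a testis-library clone of up to 7 exons, had 720, 740 and 765 counts in acRIP, 209, 247 and 234 in IgG, and 690, 417 and 469 in input. Every acRIP library was above all the others once scaled to library size. On the log2 scale it exceeded IgG by 1.75 ± 0.11 (SE, adjusted p = 1.53e-14) and input by 1.14 ± 0.10 (adjusted p = 7.87e-12).

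C920006O11Rik, a 4-exon gene within 5 kb of the kinase gene Ick, had 339, 362 and 270 counts in acRIP, 90, 115 and 122 in IgG, and 187, 135 and 149 in input. Its 3 acRIP libraries did not overlap with the rest, and on the log2 scale they exceeded IgG by 1.64 ± 0.16 (adjusted p = 4.71e-10) and input by 1.67 ± 0.16 (adjusted p = 4.6e-11). Gm30228 had 352, 401 and 402 counts in acRIP, 146, 171 and 144 in IgG, and 308, 189 and 225 in input. It differed by 1.38 ± 0.14 over IgG and 1.32 ± 0.14 over input on the log2 scale, and overlaps the gene models Gm18041 and Gm47696. Gm43356 had the most counts of the 10, with 626, 737 and 820 in acRIP, 271, 347 and 425 in IgG, and 641, 511 and 480 in input. Its log2 fold changes, 1.14 ± 0.11 and 1.05 ± 0.10, stood close to the limit of the call, and without acRIP replicate 3 that over input was 0.95 and not called.

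The 12 genes with the highest log2 fold change over IgG were of another kind. All 12 had 0 counts in every IgG library, so their order is that of the fitted values and the folds are bounds against 3 counts per library. Gm43821 had 58, 48 and 30 counts in acRIP and 0 in the other 6 libraries. Its level was at least 15.2-fold higher than IgG and at least 21.7-fold higher than input, or 7.59-fold and 10.9-fold against 3 read pairs. It overlaps the pseudogene Rpl21-ps10. Gm13211 had 32, 44 and 39 counts in acRIP and 0 elsewhere, at least 12.7-fold above IgG and 18.2-fold above input. Gm34933 and 2610303G11Rik were likewise counted only in acRIP, with 42, 36 and 20 and with 12, 52 and 42 counts. These 4 genes reached the minimum of 60 counts through the acRIP libraries alone, so that their difference was fixed by the selection and is given as description. The rest of the 12 also held fewer than 60 counts outside acRIP. They passed the minimum only with their acRIP counts, and their folds and p-values are likewise given as description.

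Gm45430, a 260-base transcript of 2 exons shown whole above, had 32, 52 and 75 counts in acRIP, 0 in IgG, and 0, 2 and 1 in input. It was at least 17.6-fold above IgG, and its mean level in acRIP was 11.9 FPKM (the CPM divided by the exon length in kilobases). Gm30978 had 40 counts in each acRIP library, 0 in IgG, and 2, 1 and 0 in input. The others were Gm14133, A330043C09Rik, Gm33994, Gm47520, D630033O11Rik and Gm20083. A330043C09Rik had the most counts in input among the 12, at 28, 11 and 10, beside 62, 69 and 35 in acRIP and 0 in IgG, with a log2 fold change over input of 2.43 ± 0.48 (adjusted p = 5.09e-05). All of these levels were low, from 0.645 FPKM for D630033O11Rik to 11.9 FPKM for Gm45430.

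The genes lower in acRIP than both were clearest where acRIP held some counts. Mir9-3hg, the host gene of microRNA miR-9-3, had 16, 17 and 8 counts in acRIP, 242, 356 and 297 in IgG, and 518, 293 and 400 in input. The acRIP libraries lay far below the rest. Against IgG the log2 fold change was -4.37 ± 0.23 (adjusted p = 6.81e-16), against input -4.23 ± 0.23 (adjusted p = 4.35e-17), while IgG and input differed by 0.13 ± 0.15 (adjusted p = 0.485). It overlaps other annotated genes, among them A330074H02Rik.

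Gm27042, within 5 kb of Aldh18a1, had 38, 44 and 69 counts in acRIP, 318, 385 and 427 in IgG, and 433, 347 and 361 in input. It differed from IgG by -2.83 ± 0.18 and from input by -2.29 ± 0.18 on the log2 scale. 1700056N10Rik had 102, 178 and 170 counts in acRIP, 324, 452 and 407 in IgG, and 1180, 847 and 851 in input, with log2 fold changes of -1.33 ± 0.13 and -2.05 ± 0.13. In this gene IgG was itself below input, by -0.72 ± 0.11. 4930470O06Rik had 34, 66 and 56 counts in acRIP, 159, 203 and 214 in IgG, and 477, 383 and 409 in input, with changes of -1.82 ± 0.19 and -2.41 ± 0.18. These 4 and 6 others formed the 10 with most counts among the lower genes, chosen after their values were seen, with changes over IgG from -4.37 to -1.09.

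The 8 lowest over IgG by the fitted values all had 0 counts in the 3 acRIP libraries. Gm34558 had 60, 108 and 88 counts in IgG and 133, 120 and 66 in input. Its acRIP level was at least 27.7-fold lower than IgG and at least 24-fold lower than input, or 13.8-fold and 12-fold against 3 read pairs. 2310065F04Rik had 60, 88 and 72 counts in IgG and 77, 88 and 56 in input, at least 24-fold and 17-fold above acRIP. 1700120C18Rik had 52, 47 and 100 in IgG and 163, 84 and 98 in input, at least 21.7-fold and 25.5-fold above acRIP, and overlaps Gm2694.

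The other 5 were AC102562.1, 6430710C18Rik, Gm44696, Gm35514 and Gm47823. In 7 of the 8, IgG was not called different from input. Gm47823 was, with 29, 95 and 37 counts in IgG and 26, 20 and 22 in input, a log2 fold change of 1.76 ± 0.47 (adjusted p = 0.00217). Without IgG replicate 2 this log2 fold change was 1.16 and no longer called.

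**Figure D5:**
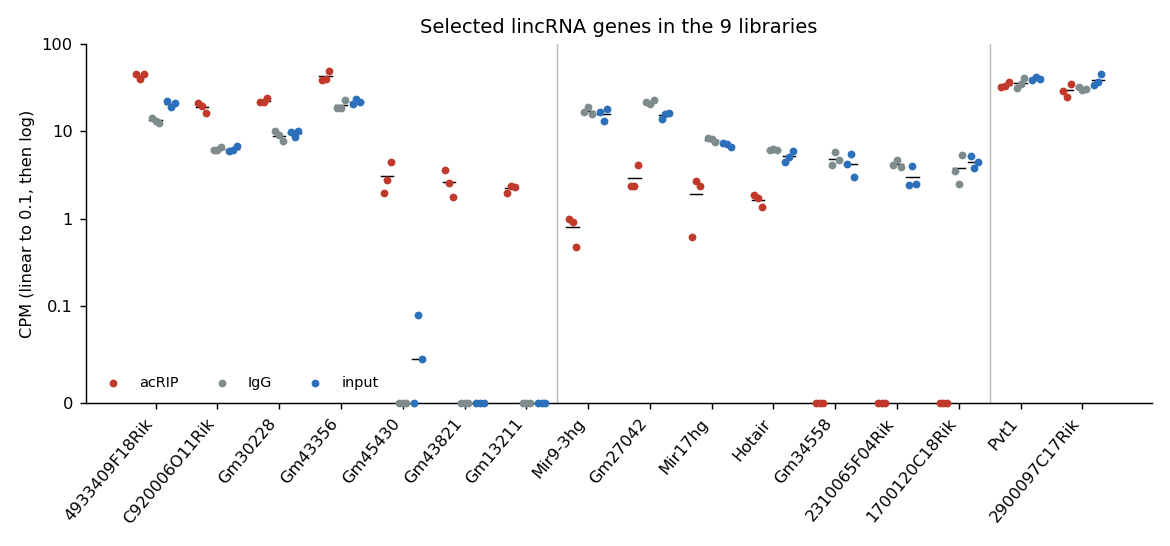
CPM of 16 lincRNA genes in the 9 libraries (points, 3 per group, with the group mean as a line, axis linear to 0.1 CPM and then logarithmic). From left, genes higher in acRIP than both, genes lower than both and genes called in neither direction against either group. The acRIP libraries lie above the other 6 in the first group and below them in the second. This separation was a condition of choice for Gm45430, Gm43821, Gm13211, Gm34558, 2310065F04Rik and 1700120C18Rik. Gm34558, 2310065F04Rik and 1700120C18Rik are at 0 in every acRIP library.

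The most abundant lincRNAs took similar shares of the acRIP and IgG libraries. The 12 with the highest input level, 256 to 910 FPKM, had log2 fold changes over IgG from -0.45 to 0.65, and none was called. Rbakdn, which lies 6435 bases from Rbak, had the highest level, 910 FPKM in input, 1094 in IgG and 1067 in acRIP. 1700008K24Rik had 25394, 17248 and 16840 counts in input, 11386, 14223 and 14342 in IgG, and 13330, 16244 and 13959 in acRIP, with a log2 fold change of 0.19 ± 0.04 over IgG. It was past the adjusted p limit (3.27e-05) but far under a fold of 2. Of the 12, 9 are RIKEN clones from testis libraries, and Gm10076 shares 20.4% of its 100-base stretches with another gene, mostly the ribosomal protein gene Rpl41.

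4930571K23Rik, a single-exon gene of 2153 bases, was the exception against input. It had 34108, 25863 and 27521 counts in input, 10245, 14166 and 13448 in IgG, and 8085, 8761 and 9535 in acRIP. On the log2 scale acRIP differed from input by -1.10 ± 0.05 (adjusted p = 8.02e-20) and from IgG by -0.45 ± 0.05, and IgG itself was below input by -0.66 ± 0.05.

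Of 39 well-studied noncoding or host genes looked up by name, 21 were typed lincRNA, and 14 of these were among the selected genes. Of the 13 tested, 2 (15.4%) were higher and 3 (23.1%) lower in acRIP than both, beside 7.88% and 17% of all tested genes and 11.5% and 25.3% of the lincRNA genes. Hotair, transcribed from the HoxC cluster, had 30, 32 and 23 counts in acRIP, 90, 117 and 115 in IgG, and 139, 113 and 133 in input. It was lower in all acRIP libraries, by -1.85 ± 0.26 against IgG (adjusted p = 2.8e-07) and by -1.56 ± 0.25 against input (adjusted p = 2.51e-06) on the log2 scale. Mir17hg, the host of the miR-17 to miR-92 cluster, had 10, 51 and 40 counts in acRIP, 123, 154 and 140 in IgG, and 228, 158 and 148 in input, with changes of -2.00 ± 0.28 and -1.78 ± 0.28. Mirg, a microRNA-bearing transcript of the imprinted Dlk1-Dio3 region, changed by -1.83 ± 0.31 and -1.34 ± 0.31.

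Of the 4 selected genes named as microRNA hosts, Mir9-3hg and Mir17hg were lower than both, a count too small to set beside the 25.3% of lincRNA genes and 17% of all tested genes. Mir670hg had 164, 222 and 174 counts in acRIP, 183, 210 and 188 in IgG, and 465, 325 and 312 in input. Mir124-2hg had 28, 18 and 14 in acRIP, 36, 34 and 47 in IgG, and 69, 50 and 61 in input. Neither was called against either group. Host genes overlap the microRNA genes they carry in the annotation.

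Ftx, a noncoding gene of the X-inactivation centre, was higher than both. It had 54, 60 and 70 counts in acRIP, 10, 40 and 26 in IgG, and 19, 16 and 11 in input. It exceeded IgG by 1.38 ± 0.39 (adjusted p = 0.00290) and input by 2.62 ± 0.42 (adjusted p = 1.55e-06) on the log2 scale. IgG was itself above input by 1.25 ± 0.43 (adjusted p = 0.0160), a call lost without IgG replicate 2 (0.83) and without input replicate 3 (1.13). Its neighbour Jpx, an activator of Xist that overlaps it in the annotation, had 0, 4 and 16 counts in acRIP, 4, 8 and 2 in IgG, and 17, 22 and 27 in input, and was not called. Bvht, known from heart development, had 53, 51 and 24 counts in acRIP, 22, 16 and 16 in IgG, and 37, 13 and 18 in input. It exceeded IgG by 1.28 ± 0.45 (adjusted p = 0.0139) and input by 1.59 ± 0.44 (adjusted p = 0.00202). The call over IgG was lost without acRIP replicate 1 (1.03) and without IgG replicate 2 (1.14).

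Several well-studied genes moved against a single control group or not at all. Pantr1, divergent from Pou3f3, had 81, 128 and 91 counts in acRIP, 20, 32 and 39 in IgG, and 97, 66 and 75 in input, and was higher than IgG by 1.79 ± 0.28, while its 0.96 ± 0.25 over input missed the fold limit. Miat, a nuclear lincRNA of neurons, had 10, 17 and 5 in acRIP, 52, 45 and 56 in IgG, and 28, 35 and 29 in input. It was lower than IgG by -2.21 ± 0.45, and IgG was above input by 1.28 ± 0.41. Lncpint was likewise lower than IgG, by -1.19 ± 0.42, and IgG was above input by 1.84 ± 0.42. Without acRIP replicate 1 its change against IgG was -0.86 and not called, and without input replicate 1 IgG over input in Miat was 1.07 and not called.

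Pvt1, next to Myc, had 510, 618 and 610 counts in acRIP, 457, 656 and 768 in IgG, and 1204, 917 and 872 in input. Its log2 fold changes were -0.04 ± 0.10 and -0.16 ± 0.09. 2900097C17Rik, the mouse Norad gene, which binds Pumilio proteins, differed by -0.01 ± 0.11 over IgG and -0.29 ± 0.11 over input. 1700020I14Rik, known as Cyrano and as a regulator of miR-7, differed by -0.16 ± 0.08 and 0.21 ± 0.08. Epb41l4aos was higher than input by 1.38 ± 0.22 and not called against IgG (0.45 ± 0.21). Trp53cor1, known as lincRNA-p21 and induced by p53, was not tested, with 4, 6 and 16 counts in acRIP, 4, 2 and 7 in IgG, and 20, 6 and 1 in input.

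The IgG libraries had calls of their own. Against input, 148 lincRNA genes (7.40%) were higher in IgG, beside 13.5% of all tested genes, and 203 (10.1%) were lower, beside 7.22%. AC121802.1, a 3-exon gene of 1696 bases, stood apart. It had 22652, 33953 and 43134 counts in IgG, 203, 193 and 167 in acRIP, and 4, 8 and 4 in input. The log2 fold change was 13.11 ± 0.17 for IgG over input and 5.73 ± 0.30 for acRIP over input, and acRIP was lower than IgG by -7.38 ± 0.11. No other lincRNA gene was called in opposite directions against IgG and input. Gm38619 had 25, 24 and 30 counts in IgG and 0 in the other 6 libraries, at least 12.5-fold above input, and overlaps 4930414F18Rik. Gm38619 reached the minimum summed count through the IgG libraries alone, so its difference was fixed by the selection and is given as description.

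At the other end, Gm40421 had 26, 22 and 24 counts in input and 0 in IgG and acRIP. Gm32284 had 38, 26 and 32 in input, 0 in IgG, and 0, 2 and 2 in acRIP. D030024E09Rik, on the other hand, had 17, 30 and 10 in input and 16, 18 and 16 in acRIP but 0 in IgG, so that it was called higher than IgG (at least 5.55-fold) and not against input (0.40 ± 0.61). Gm47127 had 40, 64 and 55 in acRIP, 6 in each IgG library and 0 in input. Gm40421 and Gm32284 reached the minimum summed count through the input libraries, and Gm47127 through the acRIP libraries. D030024E09Rik reached it only with its input and acRIP counts together. The differences of these genes thus depend on the selection and are given as description.

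Classes of lincRNA genes differed in level and in their calls. Testis-library RIKEN clones, with a median of 6.63 CPM, were higher than both in 6.30% and lower in 20.4% of 524 tested. Gm-numbered genes, at 1.84 CPM, were higher in 12.5% and lower in 25.6% of 1123. Other RIKEN clones, at 1.48 CPM, were higher in 22.4% and lower in 30.1% of 156, and genes with clone-based symbols, at 1.72 CPM, were higher in 13.1% and lower in 37.2% of 137. From 1 to 4 CPM, the share higher was 11.9% in testis-library clones, 17.9% in Gm-numbered genes and 32.1% in other RIKEN clones, and above 4 CPM it was 3.32%, 4.97% and 9.76%. In the same order, the share lower was 65.5%, 47.2% and 39.0% up to 1 CPM, and 32.6%, 23.1% and 39.3% from 1 to 4 CPM. Above 4 CPM it was 7.55%, 6.73% and 4.88%. At each of these levels it was larger in testis-library clones than in Gm-numbered genes, although over all levels it was smaller. No difference between classes was tested.

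The shares called are given by base composition, with no test. Of the 501 tested lincRNA genes with the least C (up to 21.1%), 10.4% were higher and 25.7% lower than both, and of the 500 with the most C (over 25%), 12.4% and 24.4%. With up to 1.63 CCG per kilobase (501 genes), 9.58% were higher and 28.1% lower, and with over 5.52 per kilobase (498 genes), 11.6% and 21.1%. Against input, the share lower in acRIP was 35.9%, 32.2%, 30.3% and 25.7% from the genes with the fewest CCG per kilobase to those with the most, and the share higher was 13.2%, 17.2%, 17.7% and 19.1%. In the same order, the share lower in IgG than input also fell, from 12.8% to 10.4%, 9.16% and 8.23%. The share higher in IgG than input was 7.19% at the fewest CCG and 7.03% at the most. Against IgG, the share higher in acRIP lay between 16.6% and 19.3%. The share lower than IgG was 30.7%, 28.4%, 29.5% and 24.3%. The octamer TCCCAGCT, counted on the transcript strand, stood in 98 tested lincRNA genes (4.90%, beside 11.3% of all tested genes). Of these 12.2% were higher and 23.5% lower than both, and of the genes without it 11.5% and 25.4%. The lincRNA genes with the octamer were longer, with a median of 2192 bases beside 1047 in those without. All tested genes were also longer than the tested lincRNA genes, with medians of 3002 and 1087 bases.

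Calls against input are also given by internal runs of A, with no test. Of the 161 tested lincRNA genes with 10 or more A in a row, 29.2% were higher in acRIP than input and 15.5% higher in IgG than input, and of the 1840 without, 15.7% and 6.68%. Over all tested genes these shares were 17.7% and 13.5%. Up to 1 CPM, 20% of 50 genes with such a run were higher in acRIP than input and 18.6% of 473 without, from 1 to 4 CPM 37.7% of 53 and 21.8% of 647, and above 4 CPM 29.3% of 58 and 8.33% of 720. The genes with a run were longer, with a median of 2172 bases beside 1030. Oligo(dT) was used both to isolate the RNA and to prime cDNA in all groups, and the part of internal priming was not tested.

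The calls of the nearest coding genes are given beside those of the lincRNA genes. Of 38 genes higher than both within 5 kb of a protein-coding gene, 33 had a tested neighbour, of which 2 (6.06%) were higher and 6 (18.2%) lower than both. Of 81 genes lower than both at that distance, 74 had a tested neighbour, of which 3 (4.05%) were higher and 12 (16.2%) lower. Over all tested lincRNA genes so placed, 4.15% of neighbours were higher and 14.5% lower. On the opposite strand, 14 genes higher than both overlapped a protein-coding gene, and 0 of the 13 tested partners were higher and 2 lower.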

How the data were processed

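The authors deposited counts of uniquely mapped reads per gene, not normalized, with each gene's merged exon length. Per the labels, reads were trimmed with Trim Galore 0.6.7, mapped to mm10 with STAR 2.7.10a and counted with featureCounts 2.0.2. Which annotation release was counted, with which strand setting, and by reads or by fragments, is not given in the sources used here. Unique mapping undercounts genes with near-identical copies.

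Gene types came from GENCODE vM21, matched on unversioned identifiers (55141 of 55401). All 22510 genes that passed filterByExpr were tested in a single edgeR 4.0.16 quasi-likelihood fit of the 9 libraries (R 4.3.3, TMM, no covariate), and called at a Benjamini-Hochberg p under 0.05 with a fold over 2. SEs were derived from the fitted log2 fold change and its F. On simulated counts of acRIP over IgG, 95.3% of 192 genes changed 4-fold were recovered and 11 unchanged genes called among 22510. The simulation gave every gene the same dispersion and no doubled counts, so these rates may not carry over to genes with low counts. A count of 0 allows up to 3 counts, so folds against groups at 0 are bounds against 3 counts per library, which cover counting error only. Exon numbers are the largest of any transcript.

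The selected genes and lists were chosen with earlier results of these data known. Named genes were well-studied lincRNAs, the 12 with the highest input FPKM, the 12 highest and 8 lowest over IgG among genes called against both with no overlap of libraries, and the 3 highest and 3 lowest in IgG over input, plus those said to be chosen after their values were seen. DESeq2 1.42.0, other scalings, filters and subsets were alternatives. Figures used matplotlib 3.10.9.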

Additional observations from a re-analysis of the deposited data

How the results depend on the processing

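Of the lincRNA genes' counts from 1 to 20, 80.0% were even, and the fits were also run on halved counts. In halved counts 343 lincRNA genes were lower and 207 higher than both. With a mean of at least 20 counts, 298 genes were lower than IgG, 339 lower than input, 257 lower than both, 98 higher and 129 lower in IgG than input, since fewer genes were tested. In the test against a fold change of 2, 214 were higher than IgG, 196 higher than input, 115 higher than both, and 45 higher and 68 lower in IgG than input. In fits of only the 6 libraries compared, 282 were lower than both, and the cause was not tested. The rule of FPKM + 1 over 2 against both gave 112 genes higher. The other count results stayed within 1.5 times under every alternative run, among them DESeq2, with 233 genes higher and 506 lower than both.

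The median log2 fold change over IgG (-0.08) was -0.06 with RLE and with DESeq2, -0.04 with upper quartile, -0.14 with library size alone, 0.01 at a mean of 20 counts, 0.03 in the fit of 6 libraries and -0.02 in halved counts. That over input (-0.24) was -0.29 with upper quartile, -0.32 with library size alone, -0.10 at a mean of 20 counts, and -0.15 in the fit of 6 libraries and in halved counts. Scaling moved the median of all tested genes, acRIP over input, from -0.10 to -0.18 with library size alone.

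With each library left out in turn, genes higher than both numbered 213 to 236 and lower than both 501 to 513, higher than IgG 340 to 367 and lower 557 to 576, higher than input 313 to 343 and lower 614 to 640, and higher in IgG than input 119 to 146 and lower 172 to 203. The median over IgG lay between -0.12 and -0.07, that over input between -0.28 and -0.23. Of 2292 log2 fold changes of named genes under the alternatives, 44 lost their call, 23 of them in the test against a fold change of 2, and none reversed.

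The replicate block gave 223 genes higher and 501 lower than both. Deviations of libraries with the same number correlated at -0.007 to 0.035, not every library correlated best with its own number, and the numbers were not taken to pair the samples. Without AC121802.1, chosen after seeing the data, no count moved by more than 1.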

Other observations

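Some lincRNA genes known from other tissues fell below 60 counts. Xist had 12, 0 and 0 counts in input, 4, 19 and 10 in IgG, and 0, 0 and 2 in acRIP. Mir155hg had 17 counts in all and Rmst 14, and neither had a count in acRIP. Mir124a-1hg, Hottip, Lncenc1 and Carmn had 0 counts in all 9 libraries.

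In 28 of the selected genes over 90% of the counts came from the acRIP libraries, in 3 from IgG and in 18 from input.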
